A study of Mus musculus with 6 samples.

Results

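AMP-activated protein kinase (AMPK) is the cell's main sensor of low energy, and the transcripts of its 7 subunit genes and of 3 upstream kinases were examined in kidneys of diabetic mice. The 10 genes were chosen by symbol: Prkaa1, Prkaa2, Prkab1, Prkab2, Prkag1, Prkag2, Prkag3, Stk11, Camkk1 and Camkk2. All 10 were found once each among the 55401 gene identifiers of the deposited tables, and all 10 passed the filter on low counts that left 17194 genes for testing. Poly(A) RNA of whole kidney was sequenced from 2 groups of 3 mice: Cdo1KKO/Sed, which carry the genotype given as KO, and WT/Sed, which are wild type. All 6 mice had received streptozotocin, a beta cell toxin, to induce type 1 diabetes. Cdo1 encodes cysteine dioxygenase, and the stated question was which pathways of the diabetic kidney depend on Cdo1 of the renal tubule. The labels give no age, sex, strain, Cre driver, or meaning of Sed, and no non-diabetic group.

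The enzyme has a catalytic alpha subunit (Prkaa1 or Prkaa2), a scaffolding beta subunit that binds glycogen (Prkab1 or Prkab2) and a gamma subunit that binds AMP, ADP and ATP (Prkag1, Prkag2 or Prkag3). Each complex holds one subunit of each kind. It becomes active when a threonine in the activation loop of alpha is phosphorylated, either by LKB1, the product of Stk11, or by the calcium- and calmodulin-dependent kinase CaMKK2, the product of Camkk2; Camkk1 encodes its close relative. Active AMPK turns on fuel oxidation and autophagy and turns off synthesis of lipid and protein, and in the kidney it acts in tubule cells with high energy use. Prkag3 is best known as the gamma isoform of fast skeletal muscle. Transcript levels do not show how much of the kinase was phosphorylated.

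The site that LKB1 and CaMKK2 phosphorylate is the same in both catalytic isoforms, as the coding sequence of the activation segment shows. It is printed 5′ to 3′ on the coding strand from the GENCODE M21 transcripts (GRCm38), with the codon of the target threonine in capitals. This is codon 183 of the Prkaa1 reading frame on chromosome 15 (plus strand) and codon 172 of the Prkaa2 reading frame on chromosome 4 (minus strand).
Prkaa1: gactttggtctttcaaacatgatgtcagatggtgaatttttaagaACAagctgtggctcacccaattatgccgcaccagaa
Prkaa2: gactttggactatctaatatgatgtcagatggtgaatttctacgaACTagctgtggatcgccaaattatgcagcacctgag
The segments matched at 68 of 81 bases, and all 27 encoded residues were the same. The counting method is not known, nor how it treated reads that match several genes. Whether any reads match both of these genes was not tested.

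The libraries held 28145261 to 43872779 counts, and CPM below are a gene's counts scaled to library size (edgeR's cpm, with TMM factors). Cdo1 itself stood at 109, 118 and 103 CPM in Cdo1KKO/Sed and at 181, 191 and 180.5 CPM in WT/Sed, so the transcript was lower in the labelled knockouts and still present. Proximal tubule markers moved with genotype: 10 of 10 were lower in Cdo1KKO/Sed, and their summed level was 9068 to 9910.5 CPM there and 16022 to 16636 CPM in WT/Sed. Of 9 macrophage and dendritic cell markers, 6 were higher and 1 lower, where 18.9% and 18.5% of all genes tested passed as higher and lower. Their sums were 117 to 124 CPM in Cdo1KKO/Sed and 59.7 to 96.3 CPM in WT/Sed. In whole kidney, fewer cells of a type and less RNA per cell cannot be told apart, and the part of these shifts in the results below was not tested. All 8 general kidney markers were detected and tested. Of these, 3 were higher and 3 lower (median log2 fold change -0.37). Their sum was 9006 to 9181 CPM in Cdo1KKO/Sed and 10037 to 10334 CPM in WT/Sed. Summed hepatocyte markers were at 1295 to 1516 CPM in Cdo1KKO/Sed and 2328 to 2527 CPM in WT/Sed. Of 5 tested, 3 were lower and 2 did not pass, and which cells supplied them was not tested. Collecting duct markers were at 356 to 358 CPM in Cdo1KKO/Sed and 569 to 580.0 CPM in WT/Sed. In the collecting duct list the abundant Aqp2 and Aqp3 were lower, Slc4a1 was higher and 4 of 7 did not pass, so that its median log2 fold change was 0.12 although its sum was lower. Thick ascending limb and distal convoluted tubule markers were at 5256 to 5505 CPM in Cdo1KKO/Sed and 3351 to 3915 CPM in WT/Sed. Of these 7 markers, 5 were higher and 1 lower. Adipocyte markers were at 3.09 to 3.86 CPM in Cdo1KKO/Sed and 0.150 to 0.668 CPM in WT/Sed. The adipocyte sum was mostly Cidec, the 1 member tested; the other 5 were too low to test, and Lep was at 0. Y-linked genes were present in all 6 libraries.

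By the edgeR quasi-likelihood test with Benjamini-Hochberg adjustment over all genes tested (threshold 0.05), 3 of the 10 genes were higher in Cdo1KKO/Sed (Prkab1, Prkab2 and Camkk2) and 2 were lower (Prkag3 and Stk11). Over all genes tested, 37.4% passed, 18.9% as higher and 18.5% as lower, so a count of 5 in 10 is not read as particular to these genes. The groups did not overlap in CPM for 7 of the 10 genes, 4 with Cdo1KKO/Sed higher and 3 with it lower. Over all genes tested this held for 50.3%, for 25.7% as higher and for 24.5% as lower. The median log2 fold change of the 10 was 0.11, against 0.0078 over all genes tested. The split depended on scaling. When libraries were scaled by their totals alone (library size only), 6 genes were higher and 1 lower, where 32.1% and 9.80% of all genes were called higher and lower. With log2(TPM + 1) in limma, 5 were higher and 1 lower, where the shares were 39.5% and 7.25%. Under these settings the genes tested had a median of 0.18 and 0.19 (log2), compared with 0.0078 under TMM, so all changes below are relative to that scaling.

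**Figure D1:**
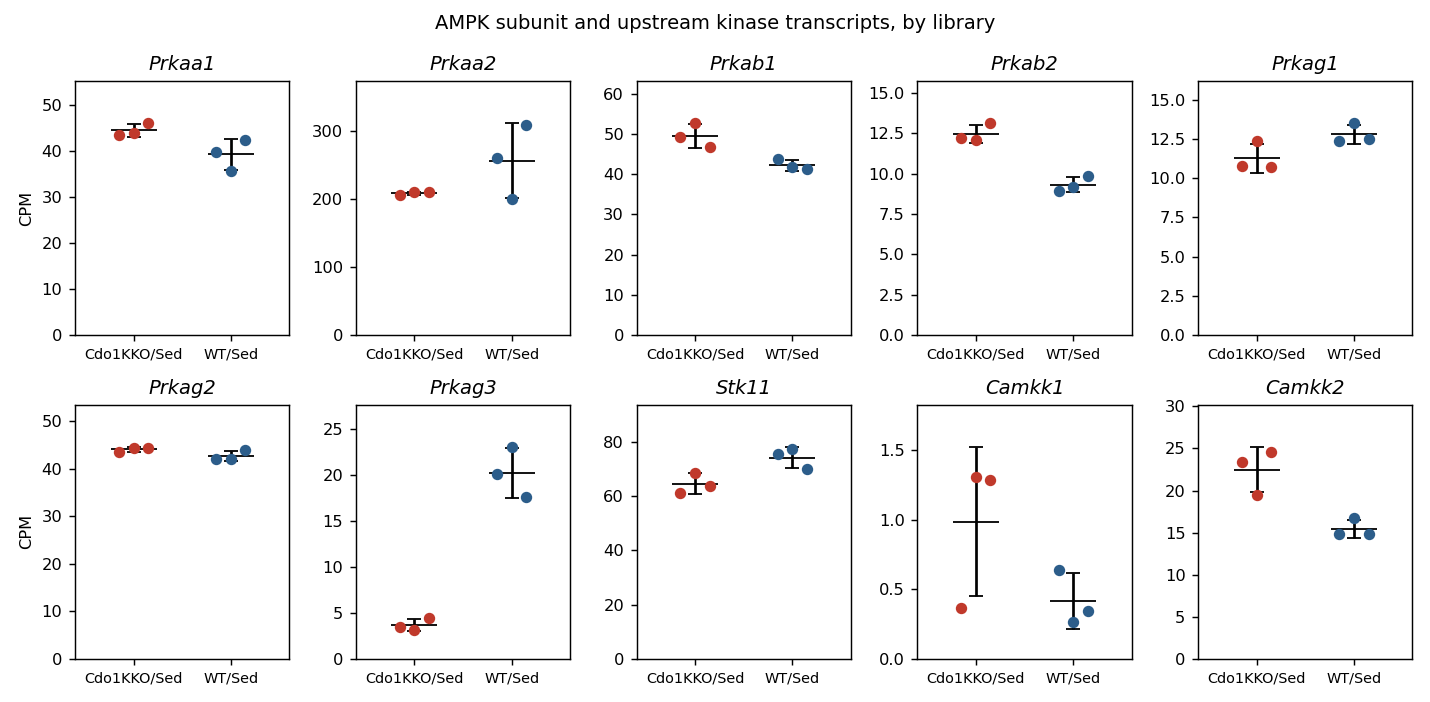
Level of each of the 10 transcripts in CPM (y axes from 0, each gene on its own scale) in the 3 Cdo1KKO/Sed libraries (red) and the 3 WT/Sed libraries (blue); horizontal bars are means and whiskers SD. Prkag3 was at 3.12 to 4.43 CPM in Cdo1KKO/Sed and at 17.6 to 23.1 CPM in WT/Sed; Prkaa2, Prkag2 and Camkk1 are the genes whose groups overlap.

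Levels per transcript length, in the deposited TPM, set the order of the genes. Prkaa2 was the most abundant of the 10 in both groups, at 70.8 ± 0.922 TPM in Cdo1KKO/Sed and 73.2 ± 16.5 TPM in WT/Sed (SD, n = 3 each). In Cdo1KKO/Sed it was followed by Prkab1, Stk11, Prkaa1, Prkag2, Prkag1, Prkab2, Camkk2, Prkag3 and Camkk1, and no neighbours in this order had overlapping libraries. In WT/Sed the order was Prkaa2, Stk11, Prkab1, Prkaa1, Prkag2, Prkag1, Prkag3, Prkab2, Camkk2 and Camkk1. There Prkag3 (12.5 ± 1.51 TPM) overlapped with its neighbour Prkag1 (13.4 ± 0.489 TPM), so the 3 gamma genes lay close together there, with Prkag2 at 14.9 ± 0.551 TPM. In Cdo1KKO/Sed, Prkag3 stood at 2.69 ± 0.527 TPM, below Camkk2.

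Among the catalytic subunits, neither gene passed the test with all libraries. Prkaa1 stood at 43.5, 43.7 and 45.9 CPM in Cdo1KKO/Sed and at 39.7, 35.6 and 42.3 CPM in WT/Sed. The groups did not overlap, but the gap was small beside the WT/Sed spread, and the log2 fold change was 0.18 ± 0.07 (approximate SE; adjusted p = 0.0752). Prkaa2 stood at 206, 209.6 and 210.0 CPM in Cdo1KKO/Sed and at 260.5, 199.9 and 309 CPM in WT/Sed. The Cdo1KKO/Sed libraries were nearly alike, while WT/Sed ranged widely and its replicate 2 lay below them all (log2 fold change -0.30 ± 0.15, adjusted p = 0.164). Without WT/Sed replicate 2, Prkaa2 passed as lower (-0.45, adjusted p = 7.60e-06), where 41.1% of genes were called, 21.1% as higher and 19.9% as lower; DESeq2 on all libraries gave -0.30 with an adjusted p of 0.0283. Without WT/Sed replicate 3 the Prkaa2 value was -0.15 (adjusted p = 0.261), with library size only -0.13 (0.516) and with log2(TPM + 1) -0.023 (0.910). Prkaa1 passed as higher without WT/Sed replicate 3 (0.23, adjusted p = 0.0128), with library size only (0.35, 0.00239) and in the 3 TPM settings (0.42 to 0.43, at most 0.0125).

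The balance of the catalytic isoforms is free of the scaling of libraries, since both come from the same library. Prkaa1 made up 26.5%, 26.3% and 27.2% of the summed alpha TPM in Cdo1KKO/Sed and 20.7%, 23.4% and 19.0% in WT/Sed. The Prkaa1 share was thus higher in all 3 Cdo1KKO/Sed libraries, by 5.68 percentage points on average (exact 2-sided permutation p = 0.1, the smallest that 3 against 3 libraries allow). Prkaa2 remained the main alpha transcript in every library.

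Both beta genes rose. Prkab1 stood at 49.3, 52.6 and 46.7 CPM in Cdo1KKO/Sed and at 43.7, 41.7 and 41.2 CPM in WT/Sed. All Cdo1KKO/Sed libraries were higher, with a log2 fold change of 0.23 ± 0.06 (adjusted p = 0.0142); the call ended without Cdo1KKO/Sed replicate 1 (adjusted p = 0.0511) or replicate 2 (0.0722). Prkab2 stood at 12.2, 12.1 and 13.1 CPM in Cdo1KKO/Sed and at 8.94, 9.15 and 9.83 CPM in WT/Sed. It was 1.34-fold higher, with no overlap between groups (log2 fold change 0.42 ± 0.10, adjusted p = 0.00583), and it passed in all 18 alternative settings. Prkab1 supplied most of the beta transcript in both groups, 86.8% ± 1.16 of the summed TPM in Cdo1KKO/Sed and 88.3% ± 0.798 in WT/Sed (SD, n = 3 each). These shares overlapped (exact permutation p = 0.2).

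The gamma subunit, which senses the adenine nucleotides, had one isoform that fell and a pair that did not pass. Prkag3 stood at 3.43, 3.12 and 4.43 CPM in Cdo1KKO/Sed, from 112, 124 and 203 counts, and at 20.1, 23.1 and 17.6 CPM in WT/Sed, from 781, 615 and 724 counts. Every Cdo1KKO/Sed library was far below every WT/Sed library. The mean in Cdo1KKO/Sed was 18.1% of that in WT/Sed (log2 fold change -2.46 ± 0.15, adjusted p = 5.91e-07), and only 12 of the 17194 genes tested had a more negative log2 fold change. Over the 18 alternative settings it ran from -2.63 to -1.87, with adjusted p values of at most 2.90e-04.

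The other gamma genes did not pass. Prkag1, the widely expressed isoform, stood at 10.7, 12.3 and 10.7 CPM in Cdo1KKO/Sed and at 12.4, 13.5 and 12.5 CPM in WT/Sed. Its Cdo1KKO/Sed libraries lay just below the WT/Sed ones (log2 fold change -0.18 ± 0.10, adjusted p = 0.178), and the sign turned with TPM (0.061). Prkag2, the isoform whose human mutations cause a glycogen storage cardiomyopathy, stood at 43.5, 44.3 and 44.3 CPM in Cdo1KKO/Sed and at 42.1, 41.9 and 43.8 CPM in WT/Sed. These groups overlapped (log2 fold change 0.047 ± 0.06, adjusted p = 0.547); it passed as higher with library size only (adjusted p = 0.00870) and with TPM.

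The make-up of the gamma pool differed between the groups. Prkag3 made up 7.40%, 6.34% and 9.28% of the summed gamma TPM in Cdo1KKO/Sed, against 30.9%, 33.1% and 27.6% in WT/Sed. Prkag2 made up 53.3%, 51.2% and 52.8% in Cdo1KKO/Sed, against 36.8%, 34.2% and 39.1% in WT/Sed, and Prkag1 made up 39.9% ± 2.34 in Cdo1KKO/Sed and 32.8% ± 0.499 in WT/Sed (SD, n = 3 each). None of the 3 shares overlapped between groups (exact permutation p = 0.1 for each, the smallest possible). These are not 3 separate results, because the shares of a library add up to a fixed total. A lower Prkag3 share alone raises those of Prkag1 and Prkag2, whose own levels did not pass the edgeR test. In WT/Sed all 3 genes supplied a sizeable share, and in Cdo1KKO/Sed Prkag1 and Prkag2 supplied nearly all of it. The sum of the gamma genes was also lower relative to the beta genes: gamma over beta TPM was 0.682, 0.684 and 0.727 in Cdo1KKO/Sed and 1.10, 1.23 and 1.13 in WT/Sed (exact permutation p = 0.1). Alpha over beta was 1.92 ± 0.103 in Cdo1KKO/Sed and 2.61 ± 0.497 in WT/Sed, again without overlap.

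**Figure D2:**
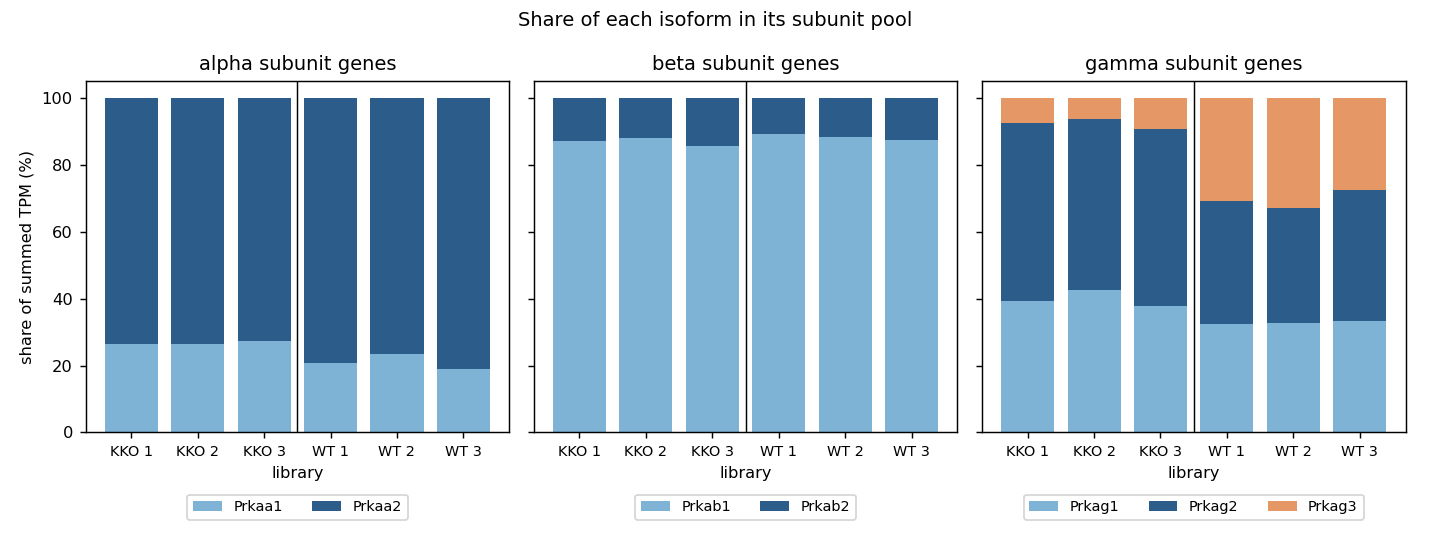
Share (%) of each isoform in the summed TPM of the alpha, beta and gamma genes, 1 bar per library, with the 3 Cdo1KKO/Sed libraries (KKO) left of the line and the 3 WT/Sed libraries right of it. The Prkag3 share is 6.34% to 9.28% in Cdo1KKO/Sed and 27.6% to 33.1% in WT/Sed, while the beta shares differ little.

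Prkag3 (ENSMUSG00000006542.13) spans chr1:74738922-74749221 on the minus strand in GENCODE M21 (GRCm38), with 14 exons in its principal transcript. Its annotated end is 1029 bases from that of Cyp27a1, a mitochondrial sterol hydroxylase gene on the opposite strand, with no shared exon base. Cyp27a1 was also lower, at 27.9, 27.6 and 28.4 CPM in Cdo1KKO/Sed and at 58.7, 59.6 and 56.8 CPM in WT/Sed (log2 fold change -1.06 ± 0.06, adjusted p = 1.87e-07). Prkag3 TPM was 7.26%, 6.66% and 9.19% of Cyp27a1 TPM in Cdo1KKO/Sed, against 20.2%, 22.8% and 18.3% in WT/Sed, so the ratio was not constant. The counts per gene do not show strand or position within the gene.

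Skeletal muscle markers were near 0 in both groups. Of 10 such markers, 8 were too low to test, and Myh2 and Myh4 had no count in any library. The summed level was 1.68 to 2.19 CPM in Cdo1KKO/Sed and 1.16 to 2.74 CPM in WT/Sed, so all 10 together were below Prkag3 alone in every library. Relative to the summed TPM of the proximal tubule markers, Prkag3 was at 0.0481%, 0.0412% and 0.0643% in Cdo1KKO/Sed and at 0.155%, 0.174% and 0.142% in WT/Sed. Their median log2 fold change was -0.74, against -2.46 for Prkag3. The part of proximal tubule content and of Cyp27a1 in the Prkag3 result was not tested.

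The promoters of the 3 genes that passed in all 18 alternative settings are shown. Each is 250 bases before to 50 after the RefSeq start (GRCm38.p6), 5′ to 3′ on the gene's strand. The windows are chr1:74748906-74749205 (minus strand) for Prkag3, which fell, and chr3:97657962-97658261 (plus strand) for Prkab2 and chr5:122779361-122779660 (minus strand) for Camkk2, which rose. Capitals mark matches on either strand to CAGCTG (an E-box), CCAAT or GGGCGG (a GC box).
Prkag3: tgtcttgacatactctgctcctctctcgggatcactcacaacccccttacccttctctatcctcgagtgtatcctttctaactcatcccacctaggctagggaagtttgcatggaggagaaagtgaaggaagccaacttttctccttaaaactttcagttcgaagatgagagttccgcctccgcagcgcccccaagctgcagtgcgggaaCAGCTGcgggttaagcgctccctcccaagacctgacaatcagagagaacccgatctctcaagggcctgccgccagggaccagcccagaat
Prkab2: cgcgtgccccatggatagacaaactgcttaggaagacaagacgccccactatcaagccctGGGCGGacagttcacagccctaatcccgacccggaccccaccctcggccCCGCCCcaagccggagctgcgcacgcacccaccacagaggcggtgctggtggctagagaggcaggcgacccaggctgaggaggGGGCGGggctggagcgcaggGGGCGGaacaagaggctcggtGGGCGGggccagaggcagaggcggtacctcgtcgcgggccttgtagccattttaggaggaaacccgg
Camkk2: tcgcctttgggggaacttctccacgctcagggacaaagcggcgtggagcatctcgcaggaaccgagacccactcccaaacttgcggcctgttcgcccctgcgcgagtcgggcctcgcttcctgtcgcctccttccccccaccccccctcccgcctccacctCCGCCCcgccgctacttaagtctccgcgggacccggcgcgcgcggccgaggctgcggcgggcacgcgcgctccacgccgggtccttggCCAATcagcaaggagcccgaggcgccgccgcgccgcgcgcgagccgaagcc
Prkag3 had 11 CpG and 54.0% GC, Prkab2 had 23 CpG and 68.0% GC, and Camkk2 had 42 CpG and 73.3% GC. The window of Stk11, which also passed as lower, had 33 CpG and 61.3% GC. Among genes that did not pass, Prkaa1 had 52 CpG and Prkag1 had 16. A link between base composition and direction was not tested. The median over 32851 promoters was 7 CpG and 52.7% GC. Prkag3 held 1 CAGCTG, which 16.3% of promoters hold. Prkab2 held 5 GGGCGG, and Camkk2 1 GGGCGG and 1 CCAAT; 35.7% of promoters hold the first motif and 37.4% the second. Neither TATAAA (13.6% of promoters) nor CACGTG (7.15%) was in any of the 3 windows.

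The genes whose pattern was most like that of Prkag3 moved far less. Over the 6 libraries, log2 CPM of Cdc37l1 (a relative of the kinase co-chaperone Cdc37), Mknk2 (a kinase of the translation factor eIF4E), Hoxd9 (a homeobox factor), Sgk2 (a serum- and glucocorticoid-regulated kinase family member) and Faah (fatty acid amide hydrolase) had the highest Pearson correlations of 12660 protein-coding genes, all at 0.999 when rounded. The 6 points share genotype, which alone separates them into 2 clusters. Their log2 fold changes were -0.63 (Cdc37l1), -0.30 (Mknk2), -0.51 (Hoxd9), -0.52 (Sgk2) and -0.58 (Faah).

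The upstream kinases went in different directions. Stk11, the LKB1 gene, stood at 61.2, 68.7 and 63.9 CPM in Cdo1KKO/Sed and at 75.4, 77.3 and 69.8 CPM in WT/Sed. All Cdo1KKO/Sed libraries were lower, though only just (log2 fold change -0.20 ± 0.06, adjusted p = 0.0282). The call ended without Cdo1KKO/Sed replicate 1 (adjusted p = 0.138) or 3 (0.0941) or WT/Sed replicate 1 (0.107) and with library size only (-0.03, adjusted p = 0.732), and the sign turned with TPM (0.052). Stk11 shares 232 exon bases with Cbarp on the other strand, which stood at 2.49 ± 0.557 CPM in Cdo1KKO/Sed and 1.97 ± 0.563 CPM in WT/Sed.

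Camkk2 rose. It stood at 23.4, 19.5 and 24.6 CPM in Cdo1KKO/Sed and at 14.9, 16.7 and 14.8 CPM in WT/Sed. Every Cdo1KKO/Sed library was above every WT/Sed library, by 1.46-fold on average (log2 fold change 0.54 ± 0.10, adjusted p = 0.00147), and it passed in all 18 alternative settings. Its neighbour P2rx4, an ATP-gated channel gene on the opposite strand 1431 bases away, also rose (0.32 ± 0.06, adjusted p = 0.00195). Camkk1 was barely expressed, with 12, 52 and 59 counts in Cdo1KKO/Sed and 25, 7 and 14 counts in WT/Sed. Its libraries overlapped, at 0.367, 1.31 and 1.29 CPM in Cdo1KKO/Sed and 0.642, 0.262 and 0.341 CPM in WT/Sed. The difference did not pass with all libraries (log2 fold change 1.23 ± 0.51, adjusted p = 0.0839). Without Cdo1KKO/Sed replicate 1 it passed (1.61, adjusted p = 0.0231), as it did with library size only (1.40, 0.0488) and no filter (1.24, 0.0162).

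The remaining genes were annotated in GENCODE M21 (GRCm38) at chr15:5143861-5181899 (Prkaa1, plus strand), chr4:105029874-105109890 (Prkaa2, minus), chr5:116013586-116024508 (Prkab1, minus), chr3:97658193-97673812 (Prkab2, plus), chr15:98812797-98831521 (Prkag1, minus), chr5:24862744-25100642 (Prkag2, minus), chr10:80115803-80130682 (Stk11, plus), chr11:73019008-73042073 (Camkk1, plus) and chr5:122731170-122779409 (Camkk2, minus). Antisense transcripts share 950 exon bases with Prkag1 (B130046B21Rik) and 795 and 142 with Prkag2 (Prkag2os2 and Prkag2os1). None of these 3 passed, and each was at a mean of under 2 CPM in both groups. Gm14508, antisense to Prkab1, overlaps its body by 2520 bases with no shared exon base. Neither Gm14508 nor 2900005J15Rik, 340 bases from Prkag2, passed. Gm17651, which shares 9 exon bases with Prkab2, had no count in any library. Without known strand, reads of overlapping genes cannot be told apart. Of the neighbours within 5000 bases, Cit (-0.76), Fmo5 (-0.79) and Ddn (-0.76) were lower in Cdo1KKO/Sed. They lie beside Prkab1 and Prkab2, which rose, and Prkag1, which did not pass. Ttc33, Kmt2d and P2rx1, beside Prkaa1, Prkag1 and Camkk1, did not pass.

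**Figure D3:**
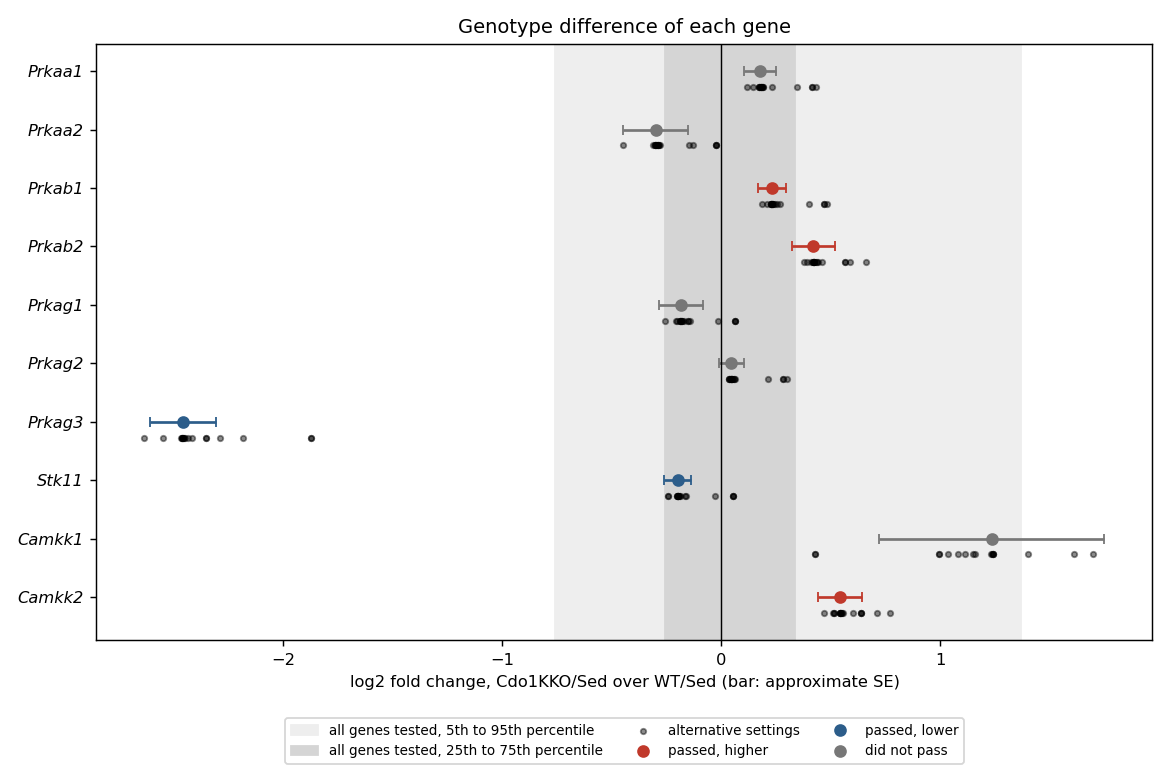
Log2 fold change of each gene, Cdo1KKO/Sed over WT/Sed, with its approximate SE (coloured by the edgeR result), over the same value in the alternative settings (small black points); grey bands hold the central 50% and 90% of all 17194 genes tested. Prkag3, at -2.46, lies far outside the band that ends at -0.76, and the other 9 genes lie inside it.

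The genes around AMPK were read from 6 lists of 81 genes, of which 76 were tested. Together 22 rose and 17 fell, or 51.3% against 37.4% of all genes tested, with a median log2 fold change of 0.010 over the lists and 0.0078 over all genes. With library size only 33 rose and 9 fell, where 32.1% and 9.80% of all genes were called higher and lower. With log2(TPM + 1) 41 rose and 7 fell, where the shares were 39.5% and 7.25%. Among the partners of LKB1 and the other AMPK kinase TAK1, 2 of 5 fell and 0 rose (median -0.12). This was 40%, where 37.4% of all genes tested passed, 18.5% as lower. The pseudokinase Stradb fell, at 41.2 ± 1.15 CPM in Cdo1KKO/Sed and 59.7 ± 1.80 CPM in WT/Sed (adjusted p = 2.74e-05). The scaffold Cab39l also fell (-0.38 ± 0.05, adjusted p = 1.25e-04), a call that ended with TPM. The TAK1 gene Map3k7 had a log2 fold change of -0.12 ± 0.06 that did not pass (adjusted p = 0.178), and its sign turned with library size only and with TPM.

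Other kinases that LKB1 activates were split, with 2 of 11 tested higher and 2 lower (median 0.077). This was 36.4%, against 37.4% of all genes tested. Without WT/Sed replicate 2, 4 were higher, where 21.1% of all genes passed as higher. Nuak1 rose to 12.5 ± 0.154 CPM in Cdo1KKO/Sed, compared with 6.81 ± 0.475 CPM in WT/Sed, and the salt-inducible kinase Sik2 to 13.7 ± 0.822 CPM in Cdo1KKO/Sed, compared with 8.08 ± 0.566 CPM in WT/Sed. Nuak2 fell, at 63.6 ± 4.59 CPM in Cdo1KKO/Sed and 109.6 ± 20.6 CPM in WT/Sed (adjusted p = 0.00374, and 0.0571 with TPM on all genes). Sik3 also passed as lower (-0.19 ± 0.06, adjusted p = 0.0403), but not with library size only, not with TPM, where its sign turned, and not without any 1 library other than WT/Sed replicate 2 (adjusted p 0.0674 to 0.137). Among calmodulins and the CaM kinases below CaMKK, Camk1d (1.15 ± 0.28) rose, and Calm3 (-0.28 ± 0.05) and Camk1 (-0.33 ± 0.07) fell. The calls for Calm3 and Camk1 ended with library size only and with TPM.

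Most phosphatases and regulators did not pass. Of 14 tested, 2 rose and 1 fell (median -0.078), or 21.4% against 37.4% of all genes tested. Without WT/Sed replicate 2, 4 rose and 4 fell, where 41.1% of all genes passed. Sesn3, a sestrin that restrains mTORC1, stood at 77.3 ± 2.93 CPM in Cdo1KKO/Sed and 47.2 ± 4.11 CPM in WT/Sed (adjusted p = 1.54e-05), and the phosphatase 2A catalytic gene Ppp2cb rose by 0.35 ± 0.06 on the log2 scale. Flcn, the folliculin gene, passed as lower (-0.23 ± 0.08, adjusted p = 0.0358); its call ended without Cdo1KKO/Sed replicate 1 or 3 or WT/Sed replicate 1 (adjusted p 0.115 to 0.140), with the replicate block (0.0588), with library size only and with TPM, where the sign turned.

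Genes whose proteins AMPK phosphorylates went both ways, with 8 of 25 higher and 7 lower (median 0.0024). Thus 60.0% passed, against 37.4% of all genes tested. With library size only, 10 were higher and 3 lower, where 32.1% and 9.80% of all genes were called higher and lower. Pfkfb3, which makes the activator of phosphofructokinase, stood at 31.7 ± 1.57 CPM in Cdo1KKO/Sed and 15.4 ± 1.91 CPM in WT/Sed (adjusted p = 9.12e-06). Acacb, the acetyl-CoA carboxylase whose product blocks fatty acid entry into mitochondria, stood at 33.3 ± 0.250 CPM in Cdo1KKO/Sed and 20.6 ± 2.57 CPM in WT/Sed (adjusted p = 1.19e-04). Lipe, hormone-sensitive lipase, fell to 7.15 ± 0.469 CPM in Cdo1KKO/Sed, compared with 16.2 ± 2.88 CPM in WT/Sed (adjusted p = 5.01e-05).

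The last list held enzymes of adenine nucleotides, the ligands of the gamma subunits, and of phosphocreatine. Of 14 tested, 11 passed (78.6%), 8 as higher and 3 as lower (median 0.27). The shares of all genes tested were 37.4% passed, 18.9% as higher and 18.5% as lower. Of the 8, Nt5c1a (21, 14 and 11 counts in Cdo1KKO/Sed and 0, 0 and 3 in WT/Sed) and Ak5 (30, 25 and 53 counts in Cdo1KKO/Sed and 7, 12 and 12 in WT/Sed) were barely counted, and with a filter of 1 CPM 6 genes were higher. Ampd3, which deaminates AMP, stood at 63.6 ± 3.41 CPM in Cdo1KKO/Sed and 27.7 ± 0.575 CPM in WT/Sed (adjusted p = 1.43e-07). Nt5e, the ecto-enzyme CD73 that turns extracellular AMP into adenosine, stood at 261 ± 3.00 CPM in Cdo1KKO/Sed and 145 ± 15.1 CPM in WT/Sed. The members that fell were the mitochondrial adenylate kinase genes Ak4, at 221 ± 6.37 CPM in Cdo1KKO/Sed and 355 ± 17.1 CPM in WT/Sed, and Ak3 (-0.51 ± 0.05), and the adenosine kinase gene Adk (-0.30 ± 0.05), whose call ended with TPM. Without Cdo1KKO/Sed replicate 3, 5 genes of this list rose.

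**Figure D4:**
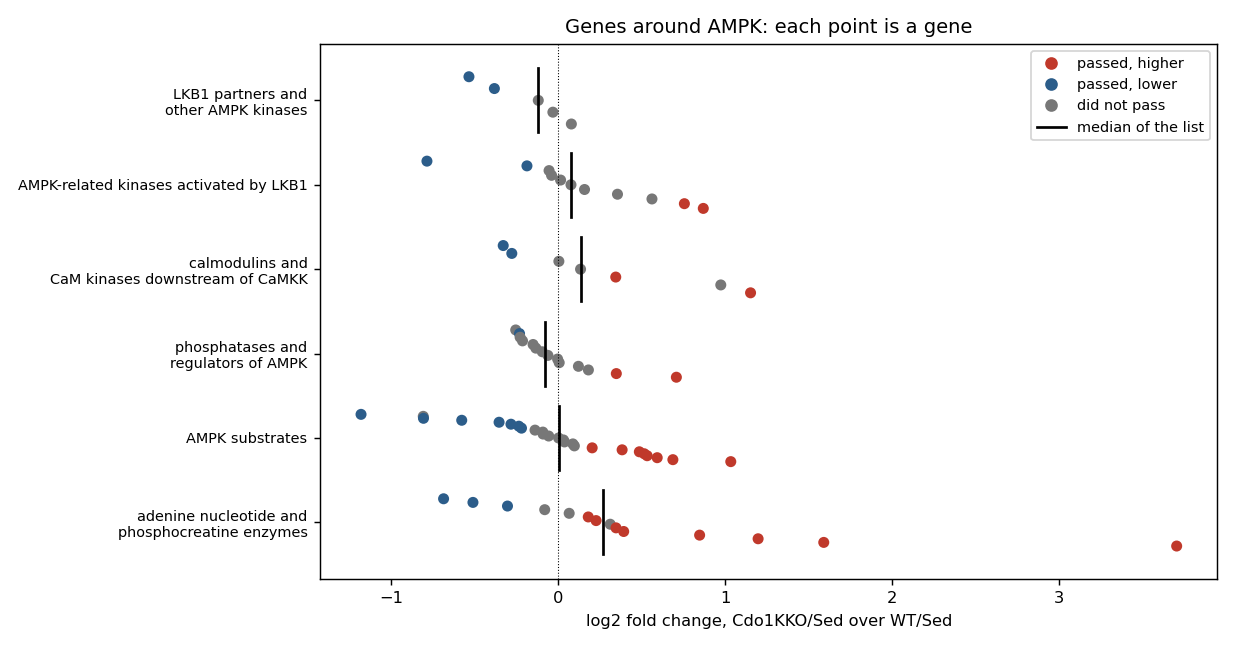
Log2 fold change, Cdo1KKO/Sed over WT/Sed, of each tested gene in 6 lists of genes around AMPK; colours give the edgeR result and black bars the list medians. Every list has points on both sides of 0, and the medians lie between -0.12 and 0.27; the point farthest right is Nt5c1a, with 3 counts over the 3 WT/Sed libraries, whose fitted value depends on the prior count.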

How the data were processed

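Per the labels, poly(A) RNA was enriched with oligo(dT) from total kidney RNA and sequenced as Illumina libraries (VAHTS V6 kit); the submitters' processing notes name fastp 0.23.4 and the builds GRCm38 and mm10. What aligned and counted the reads, with which annotation and strand setting, is not given in the sources used here. Deposited by the authors were whole-number counts per gene and, in a second table, TPM, scaled to transcript length and to the same total in each library. Counts were tested in R 4.3.3 with edgeR 4.0.16 (filterByExpr, TMM, robust quasi-likelihood F test, genotype as the only term), with Benjamini-Hochberg adjustment over 17194 genes and a threshold of 0.05. The approximate SE is the absolute log2 fold change divided by the square root of F. The fit was checked on simulated counts with few changed genes, balanced in direction, and the same dispersion for every gene. The check therefore does not cover shifts as broad as those seen here. Isoform shares used TPM and an exact permutation test (scipy 1.17.1). Alternatives used limma 3.58.1 (voom, or log2 of TPM plus 1 or 0.1), DESeq2 1.42.0, other scalings and filters, a replicate block, and each library left out.

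The members, the pathway and marker lists and the tests were chosen with earlier results of these data known. Named in the text are all 10 genes; of each pathway list the 3 members with the smallest p and those that complete a count of 5 or fewer (1 such gene is not reported here); neighbours that overlap these genes or lie within 5000 bases, where they were tested or share exon bases; the 5 genes most correlated with Prkag3 (mean of at least 1 CPM); and, after their values were seen, Nt5c1a and Ak5. Prior count for log2 CPM was 2. Figures were drawn with matplotlib 3.10.9. Promoters are RefSeq's (GRCm38.p6), with an entry for 10 of 10 genes. The labels call the libraries biological replicates. The edgeR p-values set the group difference against the spread between these samples. The permutation p-values rank the difference among all regroupings of the libraries.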

Additional observations from a re-analysis of the deposited data

How the results depend on the processing

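Of 179 fits of the 10 genes under the alternatives, 153 kept both direction and side of the threshold, 14 gained a call, 6 lost one and 6 turned sign. Those that turned were Prkag1 (0.061, 0.065 and 0.061) and Stk11 (0.052, 0.053 and 0.052) with TPM plus 1, TPM plus 0.1 and TPM on all genes; the cause was not tested. The count of genes higher, 3 with all libraries, was 6 with library size only and 5 with each of the TPM settings, and 2 to 4 with a library left out. The count lower, 2, was 1 with library size only and with each of the TPM settings, and 1 to 3 with a library left out. Over the 6 lists, 22 higher and 17 lower became 41 and 7 with TPM plus 1 or plus 0.1. They became 34 and 6 with TPM on all genes, and 33 and 9 with library size only. All genes tested shifted too: 18.9% were called higher and 18.5% lower under TMM. These shares were 32.1% and 9.80% with library size only, and 39.5% and 7.25% with TPM plus 1. Among regulators, 1 lower became 2 with DESeq2 and 3 with no filter. With CPM in place of TPM, the differences in share were 4.08 (Prkaa1), -4.08 (Prkaa2), 2.17 (Prkag1), 18.3 (Prkag2) and -20.5 (Prkag3) percentage points, by construction not per length.

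Over all genes, replicates with the same number did not deviate together (correlations of -0.0022, 0.010 and 0.013). With so few libraries this cannot show that they share nothing, and the labels do not say. With the replicate block, 3 genes were higher and 2 lower. Camkk1, the least counted gene, was not tested with a filter of 1 CPM.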
